A study of Homo sapiens with 14 samples.

Results

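Hairpin sh2 lowered the RNA of ADAR further than hairpin sh1, and the 2 libraries titled OVCAR3-DDP-sh2 were compared with the 2 titled OVCAR3-DDP-sh1. These are 4 of the 14 libraries of the series, chosen by title, and 2 libraries titled OVCAR3-DDP-shNC served as the hairpin control. The study sequenced RNA from OVCAR3 and A2780, established human ovarian cancer cell lines, and from derivatives labelled DDP, an abbreviation of cisplatin, that were made resistant to it. In all 6 hairpin libraries the line label is OVCAR3 and the title names OVCAR3-DDP. The genotype label is shNC for the control and shADAR1 for sh1 and for sh2. The hairpin sequences, the vector, the time after delivery, whether cells were a pool or a clone and whether cisplatin was present were not given in the sources used here. The labels do not say whether the 2 libraries of a group came from separate cultures. The tests therefore rest on the spread between these samples, which may be technical.

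ADAR encodes ADAR1, an enzyme that binds double-stranded RNA and turns its adenosines into inosines. Cells that lose it keep unedited double-stranded RNA of their own, which can trigger the sensor MDA5 and the kinase PKR and through them interferon-stimulated genes and a block of translation. A short hairpin RNA is processed into a small RNA that guides the silencing complex to a matching transcript, and the start of that small RNA can also match other transcripts, which is why hairpins of different sequence are used against the same gene. Here the question was which genes took a level in sh1 between control and sh2, as ADAR did, and which moved with only 1 of the hairpins. Editing itself cannot be read from gene counts and was not analysed here.

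The 6 libraries held 20428538 to 23746370 counts assigned to genes, with scaling factors from the trimmed mean of M values (TMM) between 0.948 and 1.03. Levels are TMM-scaled CPM, counts scaled to the effective size of each library, and differences are log2 fold changes from edgeR with their standard error (SE). The identity genes did not follow the label DDP. The keratin KRT7 stood at 900 to 1048 unscaled CPM in the hairpin libraries and at 1030 to 1135 CPM in parental OVCAR3, but at 0.116 to 0.376 CPM in the libraries titled OVCAR3-DDP without a hairpin. The hyaluronan receptor CD44 was at 743 to 902, at 553 to 575 and at 0 CPM in the same order. All 6 hairpin libraries were alike in this, so it does not separate sh2 from sh1, but which line the comparison describes rests on the labels. Of 14 markers of immune cells 4 were at 0 in every hairpin library and 0 reached 10 CPM. Of 11 markers of fibroblasts and stroma 2 reached 10 CPM, with COL1A1 at 94.0 to 129 CPM. Of 14 ovarian markers 6 reached 10 CPM, among them KRT7, the folate receptor FOLR1 and mesothelin (MSLN), which were abundant. PAX8 stood at 4.55 to 6.02 CPM, and SOX17 was at 0. WFDC2, CDH1, WT1, CDH6, ESR1 and EMX2 did not exceed 0.295 CPM in any hairpin library.

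The sh1 libraries stood apart from each other. Their counts differed by a chi-square of 21.1 per gene over 18269 genes, against 5.01 between the shNC and 4.87 between the sh2 libraries. On the first principal component, which held 47.3% of the variance of log2(CPM + 1), the shNC libraries lay at −23.1 and −22.9, sh1 replicate 1 at −11.6, sh1 replicate 2 at 15.2, and the sh2 libraries at 27.0 and 15.4. The second component held 21.6% and set both sh1 libraries, at −22.8 and −14.7, apart from the other 4 at 8.08 to 10.7. Replicate 2 of sh1 was nearer to the sh2 mean than replicate 1 in 62.9% of the genes tested. The main counts below are therefore also given without each sh1 library.

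**Figure D1:**
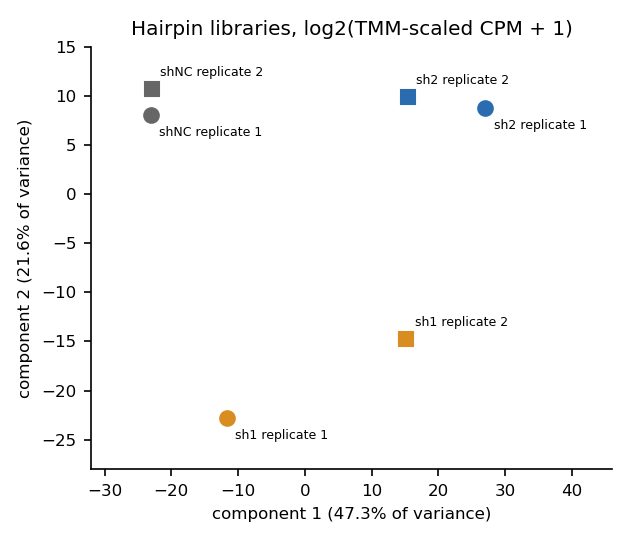
Position of the 6 hairpin libraries on the first 2 principal components of log2(TMM-scaled CPM + 1). Component 1, with 47.3% of the variance, runs from shNC at −23.1 to sh2 at 27.0 and separates the sh1 libraries, at −11.6 and 15.2. Component 2, with 21.6%, holds both sh1 libraries below the other 4.

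ADAR (ENSG00000160710.18; GRCh38, GENCODE 29, chr1:154582057-154628013, minus strand, protein coding) was at 462 and 421 CPM in the shNC libraries, 287 and 251 CPM in the sh1 libraries and 112 and 111 CPM in the sh2 libraries. The 3 groups did not overlap, and both sh1 libraries lay between the others. The log2 difference of sh2 from sh1 was −1.27 (SE 0.11; 95% interval −1.50 to −1.04; edgeR adjusted p = 5.86e-06), and it kept its call under every alternative setting tried. In bulk RNA, fewer cells carrying an active hairpin and less ADAR RNA per cell cannot be told apart. On the log2 scale sh1 reached 0.360 of the change reached with sh2, and this share is used below as the place of sh1 on an "ADAR line". The share came from these same libraries, was treated as known without error and depends on the scale. ADARB1, the related editing enzyme ADAR2, was at 117 and 109 CPM in shNC, 104 and 89.8 CPM in sh1 and 88.5 and 97.1 CPM in sh2, and sh1 and sh2 overlapped (log2 −0.06, SE 0.12; edgeR adjusted p = 0.84). Around ADAR, within 1 Mb on either side, 1 of 73 genes tested differed between sh2 and sh1, against 1.92% of all genes. It was MUC1, described below. Against shNC, 3 of the 73 were called with sh1 and 14 with sh2, against 3.81% and 14.3% of all genes.

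Between sh2 and sh1, 365 of 19044 genes were called at an edgeR adjusted p under 0.05, which is 1.92%. Of these, 127 were higher in sh2 (0.667%) and 238 lower (1.25%), and 55 differed at least 2-fold, 12 higher (0.063%) and 43 lower (0.226%). The median size of the called differences was 0.66 on the log2 scale, and the median over all genes was −0.00. At an unadjusted p under 0.05 there were 3128 genes (16.4%). The sh1 and sh2 libraries did not overlap in any of the 365, and they did not overlap in 43.9% of all genes tested. Protein-coding genes made up 88.2% of the called genes and 69.7% of those tested. The count was 780 without sh1 replicate 1, 4286 without sh1 replicate 2, 58 without sh2 replicate 1 and 73 without sh2 replicate 2. With the sh1 and sh2 libraries fitted alone it was 192. A fit that leaves 1 library in a group takes its spread from the other groups. Without an sh1 library the wide spread within sh1 drops out, so calls kept there do not show that they withstand it. The fits without an sh2 library keep that spread. Of the 365 genes, 299 were called again in the same direction when either sh1 library was left out, 117 higher and 182 lower. Leaving out an sh2 library kept far fewer, 54 of the 365 (14.8%) without replicate 1 and 66 (18.1%) without replicate 2. Of 86 called genes followed singly across all settings, 17 kept their call in every setting, 58 lost it without sh2 replicate 1 and 55 without sh2 replicate 2. Against the control, 725 genes were called with sh1 (3.81%), 373 higher (1.96%) and 352 lower (1.85%). With sh2 they were 2717 (14.3%), 1376 higher (7.23%) and 1341 lower (7.04%). Without sh1 replicate 1 these counts were 4512 and 5859, and without sh1 replicate 2 they were 1587 and 5834. Those comparisons share the shNC libraries with each other, and each shares a hairpin group with the comparison of sh2 and sh1.

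The 365 genes were sorted by their place against shNC. A gene was called ordered when it differed in sh2 from shNC and both sh1 libraries lay strictly between the shNC and the sh2 libraries, at 0.2 or more of the sh2 change. It was sh2-particular when it differed in sh2 but not in sh1, with a change in sh1 under 0.2 of that in sh2, and sh1-particular when it differed in sh1 but not in sh2, with a change in sh2 under 0.5 of that in sh1. By these rules 36 genes were ordered (0.189% of those tested), 123 sh2-particular (0.646%) and 46 sh1-particular (0.242%). The class counts, in that order, were 123, 117 and 247 without sh1 replicate 1 and 564, 1155 and 520 without sh1 replicate 2. Few genes kept their class when an sh2 library was left out, namely 2, 17 and 8 without replicate 1 and 8, 25 and 7 without replicate 2. Without shNC replicate 1 it was kept by 26, 55 and 18 genes, and without shNC replicate 2 by 23, 60 and 13. In 5 genes (0.0263%) both hairpins gave a change in the same direction that was larger with sh1, and in 1 (0.00525%) the changes were opposite. The other 154 (0.809%) met no rule. Over all genes, both sh1 libraries lay strictly between shNC and sh2 in 1521 (7.99%), 722 rising and 799 falling, and 40 of these, 5 and 35, were among the 365. The hairpins lay on opposite sides of shNC in every library in 694 genes (3.64%) and in 124 of the 365. The classes rest on comparisons that share libraries, so they are a description. A contrast of sh1 with the point on the ADAR line was called in 303 of all genes (1.59%) and in 89 of the 365, and in 88 of the 89 the sh1 mean lay outside the range from shNC to sh2. The count over all genes was 2243 without sh1 replicate 1, 1710 without sh1 replicate 2, and 70 without shNC replicate 2. The other 276 of the 365 did not pass, which does not show that they follow ADAR. With the share taken from ADAR in CPM instead of log2, 220 of all genes departed.

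**Figure D2:**
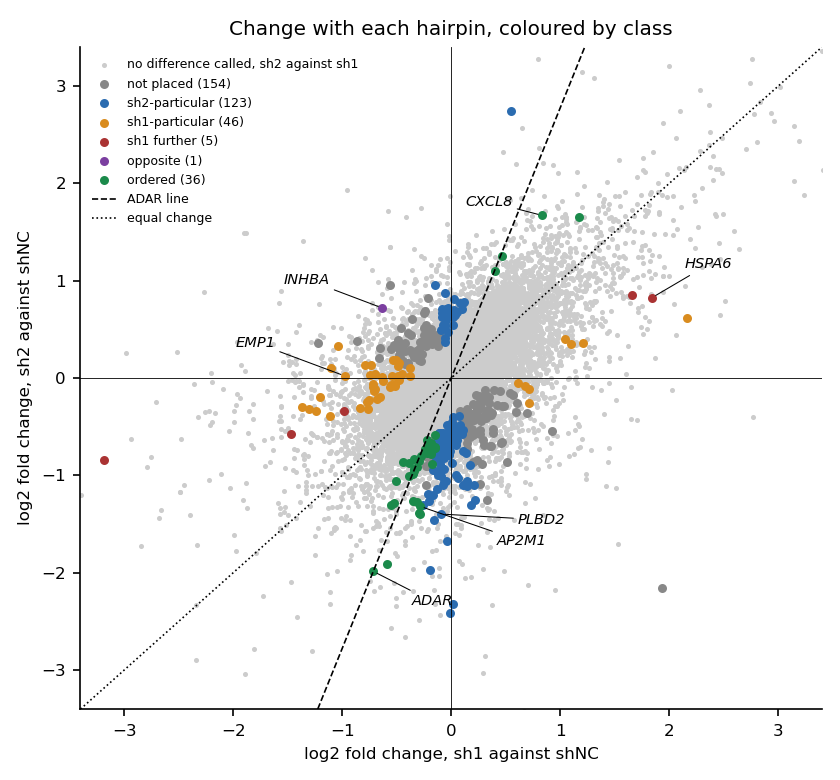
Log2 fold change against shNC of each gene tested with sh1 (horizontal axis) and sh2 (vertical axis), from edgeR, with genes that differed between sh2 and sh1 coloured by class. The dashed line marks 0.360 of the sh2 change, the place of ADAR, and the dotted line equal change. The 36 ordered genes lie around the dashed line, the 123 sh2-particular genes along the vertical axis and the 46 sh1-particular genes along the horizontal axis. The class rules largely set these places. Outside the plotted range lie 8 genes, of which 0 differed between sh2 and sh1.

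Ordered genes were mostly lower with more ADAR knockdown, 32 of 36, and their sh1 change was 0.201 to 0.709 of the sh2 change, with a median of 0.339. The rule sets the lower end and keeps sh1 inside the range, so the nearness of this median to the ADAR share is partly built in. A call of sh1 against shNC was not required. Of all 365 genes, 11 were called with both hairpins in the same direction, among them the 5 that moved further with sh1. In this paragraph sh1 was called against shNC for MUC1 and COL5A1, but not for AP2M1, NKAIN4 or TOR4A. AP2M1, a subunit of the clathrin adaptor that takes receptors into the cell, was at 459 and 488 CPM in shNC, 424 and 353 CPM in sh1 and 184 and 195 CPM in sh2. The sh2 libraries stood far below the other 4, and the difference of sh2 from sh1 was −1.03 (SE 0.11; edgeR adjusted p = 5.28e-05). MUC1, a cell-surface mucin of epithelia, stood at 88.9 and 79.6 CPM in shNC, 62.6 and 52.5 CPM in sh1 and 31.7 and 36.3 CPM in sh2. All 3 groups were separate, with a difference of sh2 from sh1 of −0.76 (SE 0.14; edgeR adjusted p = 0.0052). The fibrillar collagen chain COL5A1 fell from 2736 and 2600 CPM in shNC to 2203 and 1869 CPM in sh1 and 1248 and 1406 CPM in sh2, again without overlap. For COL5A1 the difference of sh2 from sh1 was −0.62 (SE 0.10; edgeR adjusted p = 0.00283). NKAIN4, which interacts with the sodium pump, and TOR4A, a torsin ATPase, were lower in sh2 than in sh1 by −0.91 and −0.71.

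Of the 4 ordered genes that were higher, CXCL8, a chemokine that draws neutrophils, had the largest difference. It was at 41.3 and 40.1 CPM in shNC, 55.7 and 89.4 CPM in sh1 and 141 and 118 CPM in sh2. The sh1 libraries were spread widely but overlapped neither other group, and sh2 exceeded sh1 by 0.84 (SE 0.16; edgeR adjusted p = 0.00936). TXNIP, which holds back glucose uptake and binds thioredoxin, was at 253 and 232 CPM in shNC, 602 and 492 CPM in sh1 and 858 and 670 CPM in sh2. It rose by 1.18 with sh1 and 1.66 with sh2, so sh1 lay past the ADAR line (edgeR adjusted p = 0.00743 for the departure), the only ordered gene of which this held. Its difference between sh2 and sh1 was 0.48 (SE 0.12; edgeR adjusted p = 0.0483) and was lost with upper-quartile scaling (0.058), with the compared groups alone (0.0528) and without either sh2 library (0.692 and 0.0547). NKAIN4 (0.185), MUC1 (0.179), TOR4A (0.152), COL5A1 (0.15) and CXCL8 (0.137) also lost their calls without sh2 replicate 1, and those of ADAR and AP2M1 were kept under every setting tried.

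**Figure D3:**
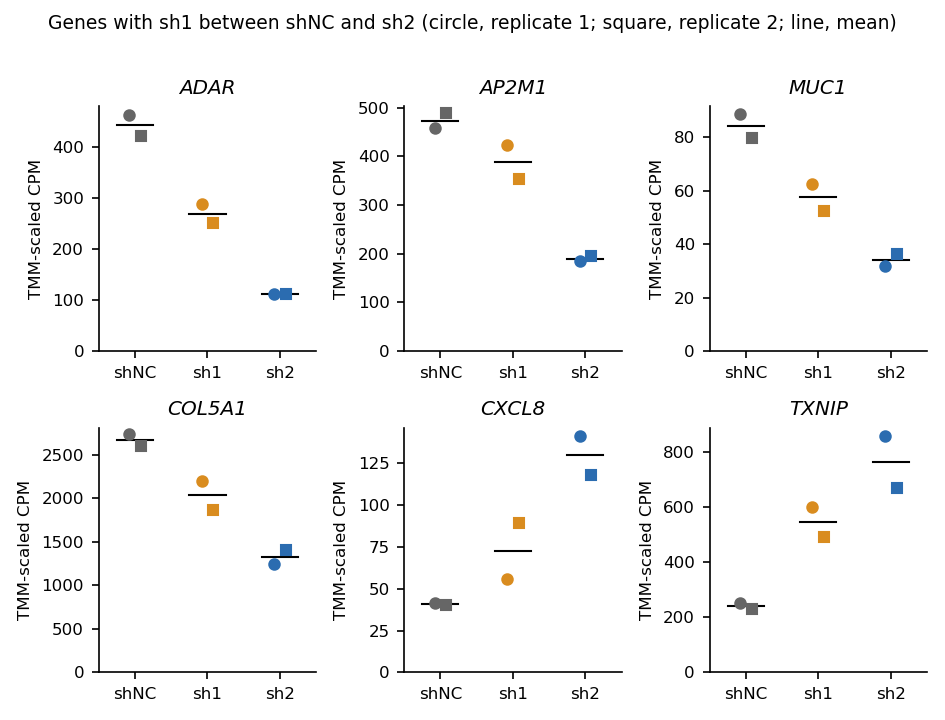
TMM-scaled CPM of ADAR and 5 ordered genes in each library, with circles for replicate 1, squares for replicate 2 and a line at the mean of each group (n = 2). In every panel both sh1 libraries lie between shNC and sh2; AP2M1 stays nearer to shNC in sh1, TXNIP nearer to sh2.

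The promoter of CXCL8 is shown because its known activator NF-kB binds sites of a set form and CXCL8 was the member of that target list that differed. The 250 bases before its RefSeq start (GRCh38.p14, chr4:73740319-73740568, plus strand) are printed with a match to GGNNNTTCC in capitals:
CXCL8: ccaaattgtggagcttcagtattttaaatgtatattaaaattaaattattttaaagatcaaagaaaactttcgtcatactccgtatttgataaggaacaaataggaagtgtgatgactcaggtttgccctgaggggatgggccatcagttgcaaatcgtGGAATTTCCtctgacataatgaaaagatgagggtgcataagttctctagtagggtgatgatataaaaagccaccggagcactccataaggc
The motif was searched on both strands. It has 1 match here, 83 bases before the start, and 18.7% of 15338 promoters of the same length hold it, so the match is a description and not a site shown to act. Of the 21 inflammatory and NF-kB target genes tested, CXCL8 alone was called between sh2 and sh1, and the median difference was 0.15 against −0.00 over all genes. By value 11 of the 21 were higher in sh2 and 10 lower, against 9418 and 9626 of all 19044 genes. The list's median against shNC was 0.44 and 0.46 in the sh1 libraries and 0.58 and 0.41 in the sh2 libraries. Against shNC, 6 of the 21 rose with sh1 and 10 with sh2, with 1 lower. Over all genes 0.667% were called higher in sh2 than in sh1, and against shNC 1.96% rose with sh1 and 7.23% with sh2.

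Of 30 collagens and matrix genes, 7 were called lower in sh2 than in sh1 and 1 higher, against 1.25% and 0.667% of all genes tested. By value 25 of the 30 were below sh1, as were 9626 of all 19044 genes, with a median difference of −0.30 over the list. Against shNC, 5 of the 30 fell with sh1 and 18 with sh2, and 0 rose with either. Over all genes 1.85% fell with sh1 and 7.04% with sh2. In sh1 replicate 1 the list's median against shNC was −0.10 and in replicate 2 −0.34, while the sh2 libraries had −0.47 and −0.43. The laminin chain LAMA5, an ordered gene like COL5A1, was at 1287 and 1185 CPM in shNC, 1149 and 846 CPM in sh1 and 620 and 688 CPM in sh2, a difference of sh2 from sh1 of −0.61 (SE 0.12; edgeR adjusted p = 0.0114). The heparan sulphate proteoglycan agrin (AGRN) was at 746 and 715, 680 and 473, and 342 and 411 CPM in the same order, with a difference of −0.62 (edgeR adjusted p = 0.0202). Perlecan (HSPG2) differed by −0.55 (edgeR adjusted p = 0.0492). The members called outside the ordered class were the laminin chain LAMC1, described below, and LAMB3 (−0.68), the matricellular protein TNC (−0.66) and the anchoring collagen COL7A1 (−0.46), which differed from shNC with sh2 only. Without sh2 replicate 1 the calls of LAMA5 (edgeR adjusted p = 0.235), AGRN (0.364), TNC (0.0988), HSPG2 (0.433) and COL7A1 (0.575) were lost, and without replicate 2 those of LAMA5 (0.0541), LAMB3 (0.0639), TNC (0.142), HSPG2 (0.124) and COL7A1 (0.0975). HSPG2 lost its call under 8 of 16 settings in all, and its difference was −0.20 without sh1 replicate 1 (0.214), where COL7A1 was at −0.27 (0.0751). Chosen after their values were seen, and on none of the lists counted here, dystroglycan (DAG1), which binds laminin, was ordered with a difference of −0.56, the integrin chains ITGA3 and ITGA5 with −0.48 each and the protease inhibitor TIMP2 with −0.56. None of these 4 was called without sh2 replicate 1 (edgeR adjusted p = 0.247 to 0.382) or without sh2 replicate 2 (0.106 to 0.193).

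The 123 sh2-particular genes moved with sh2 and stayed near shNC in sh1, 96 lower and 27 higher. PLBD2, a lysosomal protein of the phospholipase B family, was at 84.1 and 72.5 CPM in shNC, 78.7 and 68.2 CPM in sh1 and 30.4 and 29.05 CPM in sh2. The shNC and sh1 libraries overlapped and sh2 lay far below both, with a difference from sh1 of −1.30 (SE 0.13; edgeR adjusted p = 2.33e-05). ELK3, a transcription factor of the ETS family, had 49.5 and 45.8 CPM in shNC, 47.0 and 58.6 CPM in sh1 and 22.1 and 23.8 CPM in sh2, a difference of −1.20 (SE 0.14; edgeR adjusted p = 8.85e-05). Here too only the sh2 libraries were low. IL27RA, a receptor chain for interleukin-27, was at 17.7 and 21.6 CPM in shNC, 22.4 and 22.3 CPM in sh1 and 9.19 and 6.76 CPM in sh2 (−1.49, SE 0.18; edgeR adjusted p = 8.85e-05). The tight junction protein CLDN4 (−1.05) and the receptor-like protein LRP11 (−1.04) were also lower. These 5 genes kept their call under every setting tried.

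Higher with sh2 was THBS1, an adhesive glycoprotein of the matrix, at 82.5 and 84.1 CPM in shNC, 83.1 and 77.6 CPM in sh1 and 146 and 126 CPM in sh2 (0.76, SE 0.12; edgeR adjusted p = 0.00193). Both sh2 libraries exceeded the other 4. The mitotic kinase CDK1 (0.59) and the spindle motor KIF11 (0.62) were also among the 27. Without sh2 replicate 1 the calls of THBS1 (edgeR adjusted p = 0.112), CDK1 (0.298) and KIF11 (0.156) were lost, and without sh2 replicate 2 those of CDK1 (0.0846) and KIF11 (0.13).

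The 46 sh1-particular genes moved with the weaker hairpin and were not called against shNC with the stronger. In 38 sh1 was the low group and in 8 the high group, and all 46 departed from the ADAR line, which the rule for the class nearly fixes. EMP1, a small membrane protein of epithelia, was at 113 and 109 CPM in shNC, 55.6 and 57.6 CPM in sh1 and 116 and 110 CPM in sh2. The shNC and sh2 libraries overlapped, and sh2 exceeded sh1 by 1.00 (SE 0.12; edgeR adjusted p = 8.85e-05). EMC10, a subunit of the complex that inserts proteins into the endoplasmic reticulum membrane, had 137 and 148 CPM in shNC, 63.3 and 52.3 CPM in sh1 and 109 and 119 CPM in sh2, a difference of 0.98 (SE 0.13; edgeR adjusted p = 0.000204). The sh1 libraries were lowest, and both sh2 libraries also lay below both shNC libraries (log2 −0.32; edgeR adjusted p = 0.0868). TEAD2, a transcription factor partnered by YAP, was at 32.9 and 36.0 CPM in shNC, 14.4 and 14.7 CPM in sh1 and 29.5 and 25.1 CPM in sh2 (0.90, SE 0.15; edgeR adjusted p = 0.00276). For TEAD2 too both sh2 libraries lay below both shNC libraries (log2 −0.34; edgeR adjusted p = 0.119). RSU1, which takes part in cell adhesion to matrix, was higher in sh2 than in sh1 by 0.86. The ribosomal protein gene RPL21 (0.93) moved with its pseudogene RPL21P16 (1.37), and reads of the pair may have been split between them, so both values are uncertain. TEAD2 (edgeR adjusted p = 0.0817) and RSU1 (0.0524) lost their call without sh2 replicate 1, and EMP1, EMC10 and RPL21 kept theirs under every setting tried.

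The chaperone genes HSPA6 and HSPB8 were highest in sh1. They are set side by side after their values were seen, and no list of heat shock genes was counted. HSPA6, an inducible chaperone of the HSP70 family, was at 31.5 and 51.8 CPM in shNC, 153 and 146 CPM in sh1 and 95.1 and 52.7 CPM in sh2. The sh1 libraries agreed closely and lay above the other 4, and the sh2 libraries differed widely. HSPA6 rose by 1.84 with sh1 and by 0.83 with sh2, and sh2 lay below sh1 by −1.02 (SE 0.21; edgeR adjusted p = 0.0135). That call was lost with DESeq2's Wald test (adjusted p = 0.242) and, in edgeR, without sh2 replicate 2 (0.167). HSPA7, a near-identical copy beside it, moved alike (−1.54), and reads of the pair cannot be told apart with certainty. HSPB8, a small chaperone that helps clear misfolded proteins, was at 39.0 and 41.5 CPM in shNC, 86.8 and 85.7 CPM in sh1 and 55.1 and 47.4 CPM in sh2 (−0.75, SE 0.13; edgeR adjusted p = 0.00331), and lost its call without sh2 replicate 2 (0.12).

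Their promoters are shown because the heat shock factor binds repeats with the core GAANNTTC. The 250 bases before the RefSeq start (GRCh38.p14; HSPA6 at chr1:161524290-161524539 and HSPB8 at chr12:119178681-119178930, both plus strand) are printed with each match in capitals:
HSPA6: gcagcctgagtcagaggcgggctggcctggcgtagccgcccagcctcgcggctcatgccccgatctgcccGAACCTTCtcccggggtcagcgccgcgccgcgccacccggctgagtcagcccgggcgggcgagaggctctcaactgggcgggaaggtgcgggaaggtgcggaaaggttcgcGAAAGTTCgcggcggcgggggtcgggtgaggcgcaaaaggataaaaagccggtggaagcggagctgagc
HSPB8: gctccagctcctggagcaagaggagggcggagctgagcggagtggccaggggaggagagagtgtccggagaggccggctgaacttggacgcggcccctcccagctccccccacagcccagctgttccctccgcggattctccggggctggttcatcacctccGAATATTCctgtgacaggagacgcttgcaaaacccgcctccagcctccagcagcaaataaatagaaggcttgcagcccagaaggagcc
HSPA6 held 2 matches, the nearer 62 bases before the start, and HSPB8 held 1, 81 bases before it. The motif reads the same on both strands, and 4.80% of 15338 promoters of this length hold it. No binding was measured.

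LAMC1, the laminin chain shared by most laminins, fell with both hairpins and further with sh1. It was at 644 and 635 CPM in shNC, 350 and 297 CPM in sh1 and 503 and 512 CPM in sh2. All 3 groups were separate, and sh2 exceeded sh1 by 0.65 (SE 0.11; edgeR adjusted p = 0.00283; 0.055 without sh2 replicate 2). PCK1, an enzyme of glucose production, likewise fell further with sh1, as did the sulphotransferase GAL3ST1 at a lower level, and INHBE, an inhibin subunit, rose further with sh1, with differences of 0.90, 2.34 and −0.81. PCK1 lost its call with all 14 libraries fitted (0.0817) and without sh2 replicate 1 (0.145), and INHBE without sh2 replicate 2 (0.379). INHBA, which encodes the subunit of activin A, was the gene called in opposite directions. It was at 41.9 and 41.5 CPM in shNC, 29.5 and 24.2 CPM in sh1 and 69.2 and 68.3 CPM in sh2. It fell by −0.63 with sh1 and rose by 0.72 with sh2, and the difference of 1.35 (SE 0.13; edgeR adjusted p = 2.23e-05) kept its call under every setting tried.

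**Figure D4:**
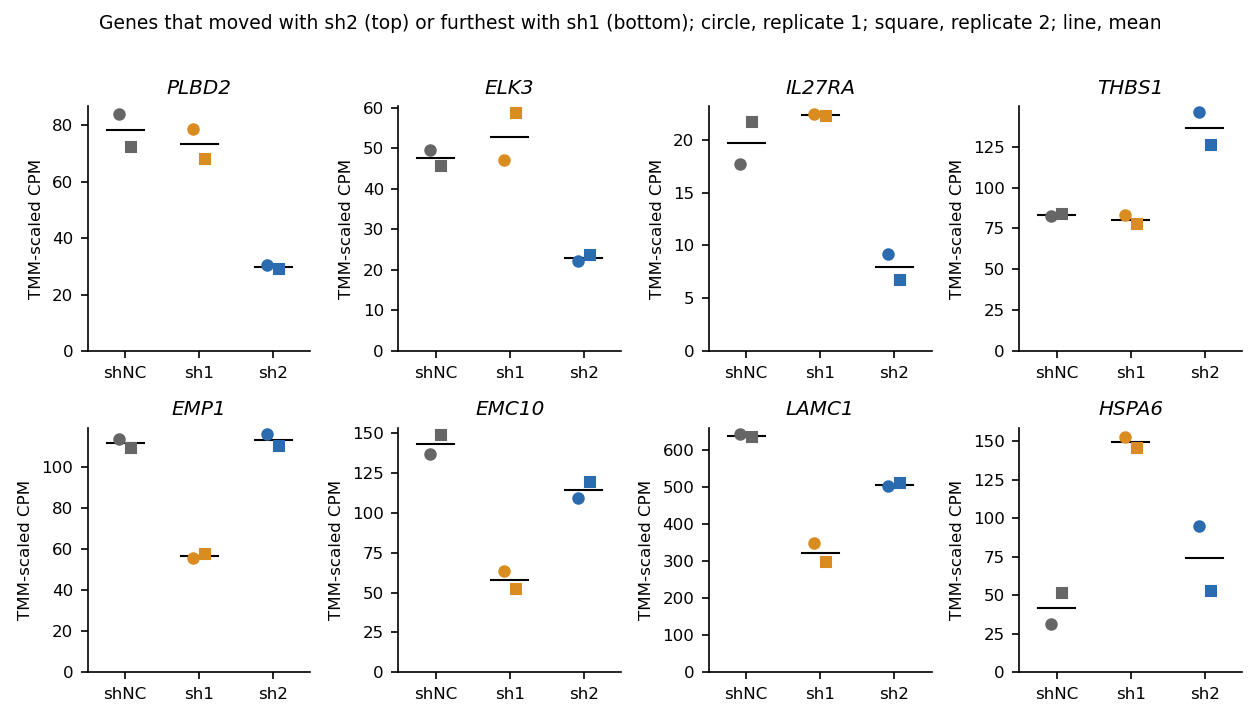
TMM-scaled CPM in each library of 4 genes that moved with sh2 (top) and 4 that moved furthest with sh1 (bottom), with circles for replicate 1, squares for replicate 2 and a line at the mean (n = 2). In the top panels shNC and sh1 lie together and sh2 apart; in the bottom panels sh1 is lowest for EMP1, EMC10 and LAMC1 and highest for HSPA6, whose sh2 libraries lie at 95.1 and 52.7.

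In all, 419 genes were called with both hairpins in the same direction, 259 higher and 160 lower. Between sh2 and sh1 11 of them were called and 408 were not, a share near the 1.92% called over all genes. In 85 of the 408 sh1 lay past the ADAR line, 52 of them higher and 33 lower. CTH, which makes cysteine, was at 4.92 and 4.36 CPM in shNC, 16.7 and 23.0 CPM in sh1 and 24.3 and 17.2 CPM in sh2. The hairpin groups overlapped, with a difference of 0.07 (95% interval −0.32 to 0.45; edgeR adjusted p = 0.899), and sh1 lay past the ADAR line (edgeR adjusted p = 0.000264). The interval leaves room for a small difference in either direction. The asparagine synthetase ASNS differed by −0.18 (95% interval −0.53 to 0.17) and CHAC1, which degrades glutathione, by −0.42 (−0.89 to 0.06), and neither passed.

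Among interferon-stimulated genes 0 of 40 passed in edgeR between the hairpins, 6 had an unadjusted p under 0.05, and DESeq2's Wald test called 1, the helicase DDX60. The median was −0.02 against −0.00 over all genes. Between the hairpins 1.92% of all genes were called. Against shNC, 10 of the 40 rose and 3 fell with sh1, and 11 rose and 3 fell with sh2. Over all genes 1.96% rose and 1.85% fell with sh1, and 7.23% rose and 7.04% fell with sh2. IFIH1, which encodes the sensor MDA5, was at 35.3 and 38.0 CPM in shNC, 66.4 and 71.6 CPM in sh1 and 79.4 and 65.3 CPM in sh2. The sh1 libraries lay within the range of the sh2 libraries, and the difference was 0.07 (95% interval −0.20 to 0.34; edgeR adjusted p = 0.842). The antiviral enzyme RSAD2 was at 88.3 and 92.6 CPM in shNC, 174 and 176 CPM in sh1 and 161 and 138 CPM in sh2 (−0.23, 95% interval −0.46 to 0.01; edgeR adjusted p = 0.34). ISG15, a ubiquitin-like antiviral protein, stood at 952 and 1019, 1038 and 929, and 923 and 916 CPM in the same order and did not pass with either hairpin. Among 17 genes of double-stranded RNA sensing 0 passed in edgeR, 0 had an unadjusted p under 0.05 and 0 passed in DESeq2 or limma-voom, with a median of 0.06. Of 24 transcripts known to be edited by ADARs the actin crosslinker FLNA passed in edgeR (−0.48; edgeR adjusted p = 0.0363), and DESeq2 also called ANTXR1 and RHOQ. For FLNA the difference was −0.20 without sh1 replicate 1 (0.138), and its call was also lost without sh2 replicate 1 (0.410), without sh2 replicate 2 (0.0880) and with all 14 libraries fitted (0.0840).

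Of 25 mitosis genes tested 3 passed in edgeR between sh2 and sh1, all higher in sh2, against 0.667% of all genes called in that direction. By value all 25 were higher in sh2, with a median difference of 0.33, and in 24 of them the libraries did not overlap, against 4064 of 19044 genes in that direction. Those that passed were KIF11, CDK1 and UBE2C, and DESeq2 called 6, adding CCNB1, KIF20A and TPX2. Against shNC the median was −0.19 with sh1, where 5 fell, and 0.11 with sh2, where 6 rose. By library it was −0.24 in sh1 replicate 1 but −0.045 in sh1 replicate 2, and 0.13 and 0.09 in the sh2 libraries. The fall with sh1 thus lay mainly in replicate 1. Over all genes 1.85% fell with sh1 and 7.23% rose with sh2. UBE2C, which marks mitotic proteins for destruction, was at 196 and 205 CPM in shNC, 134 and 137 CPM in sh1 and 184 and 194 CPM in sh2 (0.48, SE 0.11; edgeR adjusted p = 0.0267). It lost its call without either sh2 library (0.264 and 0.284) or either shNC library (0.0594 and 0.0629). Of 25 genes of entry into DNA synthesis, 21 were above in sh2 by value, as were 9418 of all 19044 genes. MCM3, part of the replicative helicase, passed in edgeR (0.46), and DESeq2 called 4, adding CCND1, MCM4 and PCNA. MCM3 lost its call without either sh2 library (0.382 and 0.270), without either shNC library (0.0822 and 0.0853) and with the compared groups alone (0.101). All 30 ribosomal protein genes listed had a higher level in sh2 by value, 29 without overlap, with a median of 0.18, and RPL32 passed. Their list held 2.49% and 2.58% of assigned counts in sh1, 2.92% and 2.93% in sh2 and 2.81% and 3.15% in shNC. Their part in the other differences was not tested.

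Among 20 chaperones of the endoplasmic reticulum HSPA5 and CANX passed in edgeR, both lower in sh2, and DESeq2 added SDF2L1. By value 19 of the 20 were below sh1, with a median of −0.22. Over all genes tested 1.25% were called lower in sh2 than in sh1, and 9626 of 19044 were lower by value. HSPA5, the main chaperone of that compartment, was at 6334 and 7018 CPM in shNC, 8163 and 8397 CPM in sh1 and 6024 and 5912 CPM in sh2 (−0.47, SE 0.08; edgeR adjusted p = 0.0052). The sh1 libraries were above and the sh2 libraries below both controls. Of 21 genes of cholesterol synthesis and uptake 1 passed in edgeR, and DESeq2 called 4, among them DHCR7, an enzyme of the last steps, and PMVK, a kinase of the mevalonate pathway. By value all 21 were below sh1, with a median of −0.25. Of 33 genes of the ATF4 stress response, 17 rose with sh1 and 13 with sh2, where 3 fell. Over all genes 1.96% rose with sh1, and 7.23% rose and 7.04% fell with sh2. Between the hairpins the amino acid carrier SLC7A5 (−0.61) and the stress cytokine GDF15 (−0.69) were lower in sh2, and the list's median was −0.14. The 13 mitochondrially encoded messengers had a median of −0.22 with 0 called in edgeR, DESeq2 or limma-voom and 5 at an unadjusted p under 0.05, and their share of assigned counts was 0.856% and 0.867% in sh1 and 0.777% and 0.726% in sh2. Without sh2 replicate 1 and without replicate 2 the calls were lost for HSPA5 (edgeR adjusted p = 0.145 and 0.125), CANX (0.424 and 0.252) and SLC7A5 (0.152 and 0.106), and that of GDF15 without replicate 2 (0.393).

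**Figure D5:**
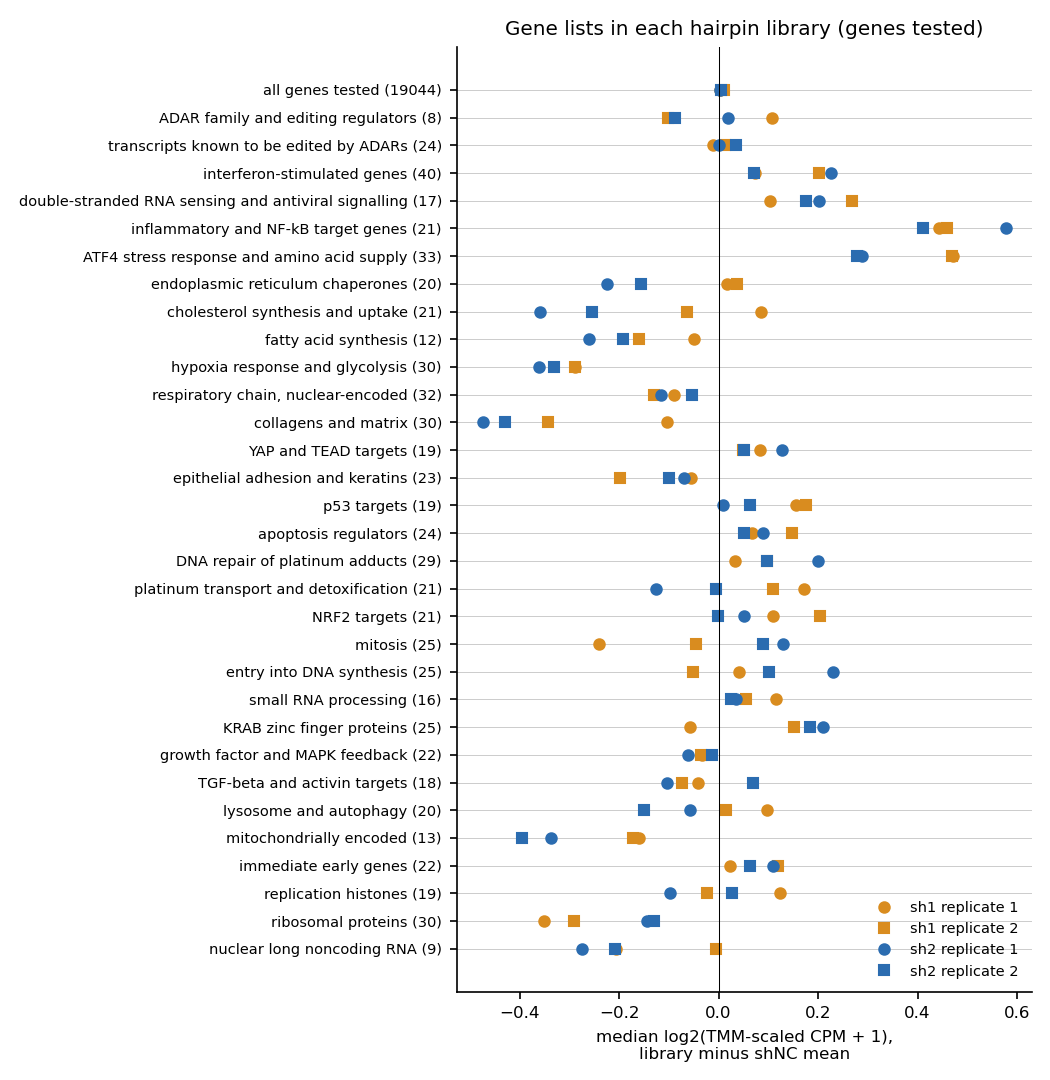
Median over each gene list of log2(TMM-scaled CPM + 1) in each sh1 and sh2 library, minus the mean of the shNC libraries, with the number of genes tested in parentheses. Ribosomal protein genes lie to the left in sh1 and further right in sh2. Mitosis genes lie to the left in sh1, mainly in replicate 1, and to the right in sh2. Cholesterol, chaperone and matrix genes lie furthest left in sh2, while the 19044 genes tested stay near 0 in every library.

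For the lists tied to platinum response and to stress, the share to set the counts against is the 1.92% called over all genes. Of 21 genes of platinum transport and detoxification the copper importer SLC31A1, which also carries cisplatin, was the gene called. It stood at 75.0 and 84.1 CPM in shNC, 87.9 and 98.5 CPM in sh1 and 62.7 and 58.3 CPM in sh2, so sh1 lay above and sh2 below both controls (−0.62, SE 0.12; edgeR adjusted p = 0.0114; 0.145 and 0.189 without either sh2 library). Among 29 genes of platinum adduct repair 0 passed in edgeR, DESeq2 or limma-voom and 4 had an unadjusted p under 0.05, with a median of 0.08. Of 19 p53 targets CDKN1A, a brake on the cell cycle (−0.42), and PHLDA3 (−0.61) were lower in sh2. CDKN1A lost its call under 6 of 16 settings, among them a replicate block (edgeR adjusted p = 0.0562) and the compared groups alone (0.103). PHLDA3 lost its call under 3 of 16. Neither was called without sh2 replicate 1 (0.528 and 0.42). Of 30 hypoxia and glycolysis genes, adrenomedullin (ADM, 0.40) and TXNIP were higher in sh2 than in sh1. The growth factor VEGFA (−0.49) and the lactate carrier SLC16A3 (−0.49) were lower. ADM was sh1-particular, at 740 and 809 CPM in shNC, 548 and 642 CPM in sh1 and 784 and 791 CPM in sh2. Its call (edgeR adjusted p = 0.0496) was lost under 6 of 16 settings. Without sh2 replicate 1 the adjusted p was 0.41 for ADM, 0.499 for VEGFA and 0.569 for SLC16A3. Against shNC, 10 of that list fell and 2 rose with sh1, and 16 fell and 2 rose with sh2. Over all genes 1.85% fell and 1.96% rose with sh1, and 7.04% fell and 7.23% rose with sh2.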

How the data were processed

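RNA counts of 14 libraries in 7 groups of 2 were used, and the 6 hairpin libraries were fitted here. The authors deposited 1 file of HTSeq gene counts per library, not normalized, and these were used as they stand. FastQC 0.11.9, SAMtools, STAR 2.7.8a, HTSeq 2.0.3 and the build GRCh38.p13 are named in the submitters' processing notes. Strand setting, annotation release and read layout were not given in the sources used here, so reads of overlapping or antisense genes may be shared. Reads on no gene were 49.5% to 50.0% of all reads in the 6 libraries and stayed out of the library sizes, as did the 5 summary lines of each file. Of 62757 genes per file, 62639 had a symbol and 58318 were found in GENCODE 29, which gave positions.

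Genes were tested with edgeR 4.0.16, quasi-likelihood F-test, TMM, filterByExpr with a minimum count of 10, 1 mean per group over shNC, sh1 and sh2, and Benjamini-Hochberg adjustment over all 19044 genes, called at 0.05. Residual degrees of freedom were 3 and the common biological coefficient of variation was 0.106. Contrasts were sh2 against sh1, each hairpin against shNC, and sh1 against the point at the share 0.360 between shNC and sh2. The scripts were tested on simulated data. Genes named by rule were ADAR and ADARB1, the 10 higher and 10 lower protein-coding genes of largest difference at 10 CPM or more without overlap, the 6 largest in each direction of each class, and up to 4 called and 2 other members of each list, of which the text prints a part, and some named by the rule are not reported here. Members, lists and rules were chosen with earlier results of these data known, so no list is independent support. Lists were described by counts and medians, without a set test. Alternatives were DESeq2 1.42.0 size factors and Wald test, upper-quartile scaling, limma 3.58.1 voom, other filters and other sets of libraries. A replicate block, each library left out in turn and the ADAR share taken in CPM were also tried. Software was R 4.3.3, Python 3.11.15, numpy 2.4.6, pandas 2.3.3 and matplotlib 3.10.9. Promoters came from RefSeq.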

Additional observations from a re-analysis of the deposited data

Results flagged for a closer look

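In 694 of 19044 genes (3.64%) every sh1 library lay on the opposite side of both shNC libraries from every sh2 library, and 124 of these were among the 365 genes called between sh2 and sh1. The genes below were among those named by the rule and have this pattern, and the difference was tested by the edgeR contrast of sh2 with sh1. Lower in sh2 than in sh1 on the log2 scale were IL27RA (−1.49), the zinc finger protein ZNF467 (−1.47), IGFN1 (−1.38), the membrane peptidase ANPEP (−1.13), KLHL5 (−1.06), the adhesion molecule NECTIN1 (−0.97), SLC31A1 (−0.62) and HSPA5 (−0.47). Higher in sh2 were INHBA (1.35), AMN1 (0.98), the matrix-associated signalling protein CCN1 (0.97), TENT5C (0.96), RPL21 (0.93), RSU1 (0.86) and PHLDA1 (0.52).

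The levels of 2 of them show its size. CCN1 was at 145 and 192 CPM in shNC, 121 and 142 CPM in sh1 and 264 and 251 CPM in sh2, and ANPEP at 61.0 and 58.6, 95.9 and 68.7, and 38.7 and 36.4 CPM in the same order. Only INHBA was called against shNC with both hairpins. For the others the side of shNC with at least 1 of the hairpins was not called, and the opposite direction rests on the libraries' order alone.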

How the results depend on the processing

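With 2 libraries per group the number of calls depended on which libraries were fitted. All 365 genes kept the sign of their difference wherever they were tested. The sh1 and sh2 libraries did not overlap in any of the 365, so this was largely fixed in advance and shows no stability. Leaving out each library in turn gave 58 to 4286 genes between sh2 and sh1, 19 to 2146 higher and 39 to 2140 lower. It gave 89 to 4512 for sh1 against shNC, 303 to 5859 for sh2 against shNC, 70 to 2243 departing from the ADAR line, 2 to 564 ordered, 17 to 1155 sh2-particular and 9 to 520 sh1-particular. Where 1 library remained in a group, its spread was taken to equal that of the other groups. Without a low-count filter 690 genes were called between sh2 and sh1, 260 higher and 430 lower, with 530 departing, 79 ordered, 208 sh2-particular and 80 sh1-particular. With the compared groups alone the counts were 192 (64 higher, 128 lower), 445 for sh1 and 5874 for sh2 against shNC. At 2-fold or more they were 55, 83 and 266, with 33 departing. At an adjusted p under 0.01 there were 9 ordered, 32 sh2-particular and 13 sh1-particular genes. DESeq2's Wald test called 204 higher, and a fit of all 14 libraries 193 higher. Other scalings, a 5 CPM filter and limma-voom stayed within 1.5 times the reported counts for sh2 against sh1.

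The replicate number as a block gave 398 genes between sh2 and sh1, 144 higher and 254 lower, and 3 named genes lost their call. The labels do not say whether the numbers pair the libraries. Deviations of same-numbered libraries correlated at 0.042 for shNC with sh1, 0.0058 for shNC with sh2 and −0.228 for sh1 with sh2. With 2 libraries per group these correlations cannot decide it. With the numbers of sh1 crossed, a setting chosen after seeing the data, 646 genes were called, 241 higher and 405 lower. Group quality weights in limma-voom, also chosen after seeing the data, gave sh1 a weight of 0.438 and called 307 genes, with 22 sh1-particular. The sign of the difference between sh2 and sh1 turned for ADARB1 (0.059 without sh1 replicate 1, 0.0049 without sh2 replicate 1, and −0.16 to 0.059 over the libraries left out), CTH (−0.14 and −0.20, range −0.20 to 0.31) and IFIH1 (−0.075 without sh2 replicate 1, range −0.075 to 0.20), which were not called. The cause of these changes was not tested.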

Other observations

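Of 20 lysosome and autophagy genes, 15 were lower in sh2 than in sh1, 12 of them without overlap, with a median of −0.24 on the log2 scale, and 0 passed in edgeR or DESeq2, with 9 at an unadjusted p under 0.05. Over all genes tested 4304 of 19044 were lower in sh2 without overlap. Of 25 KRAB zinc finger genes, which silence transposons, 19 were higher in sh2, with a median of 0.13 and 0 called by either tool (6 at an unadjusted p under 0.05). Without overlap 8 were higher and 3 lower, against 4064 and 4304 of all 19044 genes, of which 9418 were higher by value. The list's median against shNC was −0.06 and 0.15 in sh1 replicates 1 and 2, and 0.21 and 0.18 in the sh2 libraries. Over all genes 1.92% were called between sh2 and sh1. Among 19 YAP and TEAD targets CCN1 and THBS1 passed in edgeR, both higher in sh2, DESeq2 added NUAK2, and the median was 0.05. Of 23 genes of epithelial adhesion and keratins CLDN4 and MUC1 passed, both lower in sh2, with a median of −0.03.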
